A study of Homo sapiens with 3 samples.

Results

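MicroRNAs that carry the highest numbers in miRBase, the registry in which each new hairpin takes the next free number, were examined in MV4-11 cells. Members were all listed human hairpins numbered 5000 and above, with mir-6087 and mir-7854 left out, and all mature strands of the same numbers. They made up 125 of the 661 hairpins and 125 of the 783 mature miRNAs listed. Apart from those left out by name, for which no reason is given here, members were chosen by number alone.

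MV4-11 is a human cell line of acute myeloid leukemia whose FLT3 gene holds an internal tandem duplication (FLT3-ITD+). Small RNA was sequenced from 3 replicate cultures of 1 group, of genotype WT per the labels, all infected with an empty-vector (EV) lentiviral CRISPR-Cas9 construct and grown for 2 weeks before RNA was taken. The study profiled these cells to learn which miRNAs they express. No uninfected or second group was analysed here, so miRNAs, arms of the same hairpin and replicates were set against each other.

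A canonical miRNA is cut from a longer transcript as a hairpin by Drosha, and Dicer then releases a 5p and a 3p arm, one of which usually enters Argonaute as the guide. A mirtron skips the Drosha cut: splicing frees the intron, and at least one end of the hairpin is the end of that intron. Introns end in a pyrimidine-rich stretch followed by AG, so the 3p arm of a mirtron typically carries that stretch. Many high-numbered hairpins were entered in miRBase from deep sequencing as proposed mirtrons.

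Levels are given as counts, the whole reads assigned to a feature, and as FPKM, the counts the authors divided by feature length and by library total. FPKM is per length and was used wherever miRNAs are set side by side. Counts assigned to all listed hairpins were 12722997, 11022587 and 11715711 in replicates 1, 2 and 3. All 7 white blood cell miRNAs checked were listed, at a median of 276995 FPKM, and 5 of 7 miRNAs of other tissues were listed, at a median of 335 FPKM and with miR-124-3p highest at 55618 FPKM. Every library held counts for all members, but every row listed reached 10 counts in at least 1 library, so the tables were already limited to features with reads. Median-of-ratios size factors put replicates 2 and 3 above replicate 1 by 0.37 and 0.48 (log2) over all hairpins, and values scaled by them are given where they change an order.

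The sequences of the members with most reads are shown because these few strands held most member reads. They are RefSeq mature sequences (GRCh38.p14), matched by name for 109 of the 125 mature members, with the seed, bases 2 to 8, in capitals.
miR-6503-3p: gGGACUAGgaugcagaccucc
miR-6503-5p: aGGUCUGCauucaaauccccaga
miR-7974: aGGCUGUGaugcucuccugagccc
miR-7704: cGGGGUCGgcggcgacgug
miR-7976: uGCCCUGAgacuuuugcuc
miR-6774-3p: uCGUGUCCcucuuguccacag
miR-7977: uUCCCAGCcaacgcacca
miR-7706: uGAAGCGCcugugcucugccgaga
miR-6516-3p: aUCAUGUAugauacugcaaaca
Of these, miR-6774-3p was the one whose hairpin ended where an intron ends, and it ends in ag.

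For members at the end of an intron the whole hairpin shows the position best, with the listed arms in capitals. Whether splicing frees these hairpins was not tested. The 3p arm of all 3 hairpins shown runs to the last base of the hairpin, which is the last base of the host intron. They lie at chr16:85918347-85918416 (plus strand, IRF8, a transcription factor of myeloid cells), chr19:49009906-49009972 (plus strand, RUVBL2, an ATPase of chromatin remodelers) and chrX:53405673-53405765 (minus strand, SMC1A, a cohesin subunit).
mir-6774: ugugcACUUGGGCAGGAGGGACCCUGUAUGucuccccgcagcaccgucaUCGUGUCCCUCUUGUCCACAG
mir-6798: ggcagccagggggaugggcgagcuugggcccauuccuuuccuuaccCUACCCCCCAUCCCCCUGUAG
mir-6857: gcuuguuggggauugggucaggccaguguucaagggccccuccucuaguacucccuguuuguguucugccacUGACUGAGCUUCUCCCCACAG
The intron of IRF8 is 3896 nt long, so mir-6774 occupies its tail, whereas the introns of RUVBL2 and SMC1A are 90 and 98 nt long and only 23 and 5 nt of them lie before the hairpin.

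Members were plentiful as names and scarce as reads. Their summed hairpin counts were 20209, 12930 and 12968, which was 0.159%, 0.117% and 0.111% of all hairpin counts in replicates 1, 2 and 3 (0.129% ± 0.0261, SD, n = 3). The Wilson 95% interval in replicate 1 was 0.157% to 0.161%, above the shares in the other libraries, and covers counting error only. Mature members took 0.127% ± 0.0265 of mature counts (SD, n = 3).

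The median member hairpin stood at 20.7 FPKM, with a range of 5.99 to 4405 FPKM, and at rank 482 of 661. The median of all listed hairpins was 68.3 FPKM. By number, the medians were 1041 FPKM for the 306 hairpins below 1000, 68.7 FPKM for the 62 from 1000 to below 3000 and 26.2 FPKM for the 166 from 3000 to below 5000. The median was lower with each step up in number, and the members lay close to the class just before them. The order was the same for mature strands, with medians of 1730, 340, 91.3 and 61.3 FPKM.

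**Figure D1:**
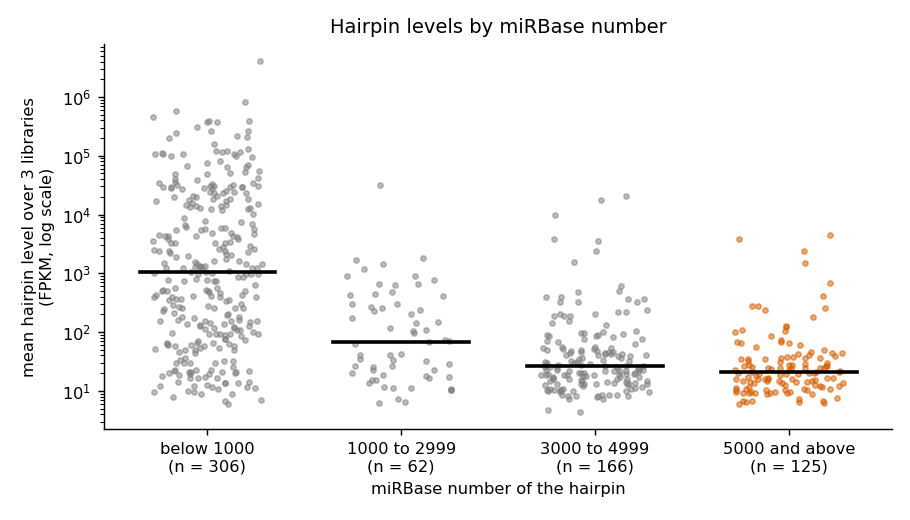
Mean hairpin level over 3 libraries (FPKM, log scale) for each listed hairpin, by its miRBase number; each point is a hairpin and the black line is the class median. Hairpins numbered 5000 and above have a median of 20.7 FPKM against 1041 FPKM below 1000, and 4 of them stand above 1000 FPKM.

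Most members had few reads. At least 10 counts in every library were found for 75 member hairpins, at least 100 for 10 and at least 1000 for 3, and 98 had fewer than 100 counts over the 3 libraries together. A mean of at least 100 FPKM was reached by 16 member hairpins. Among mature members, 65 had at least 10 counts in every library, 11 at least 100 and 3 at least 1000.

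A few hairpins carried most of the reads. The 3 most abundant held 72.4%, 60.4% and 56.4% of member hairpin counts in replicates 1, 2 and 3 (63.1% ± 8.33, SD, n = 3), and the 10 most abundant held 81.3% ± 5.07. The lead of the top 3 was largest in replicate 1.

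The most abundant was mir-6503, which lies at chr11:60209071-60209156 on the minus strand inside an intron of MS4A4E, a gene of the MS4A membrane protein family. It had 6678, 3409 and 3389 counts, or 4405 ± 1537 FPKM (SD, n = 3), and ranked 112 of all hairpins. Close behind, mir-7974 had 5340, 2877 and 2606 counts, or 3859 ± 1340 FPKM, from chr19:11495544-11495622 (minus strand) inside an intron of ZNF653, a zinc finger gene. Their mean levels differed by less than the spread between replicates, although mir-6503 was the higher in each library.

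Next came mir-6842, with 2618, 1523 and 1323 counts (2379 ± 750 FPKM), and mir-7704, with 1484, 818 and 785 counts (1482 ± 462 FPKM). The latter lies at chr2:176188843-176188901 (plus strand) in an exon of HOXD1, a homeobox gene. All 4 of these leading hairpins were higher in replicate 1 than in either other library on the deposited scale. After scaling the gap widened: mir-6503 stood at 7416, 3380 and 2925 scaled FPKM.

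The following members did not share that pattern. Counts of mir-7976, inside an intron of TPRA1, a membrane protein gene (chr3:127587111-127587176, minus strand), were 458, 566 and 547 (687 ± 121 FPKM). Those of mir-6774, the most abundant member at the end of an intron, were 276, 333 and 393 (413 ± 88.6 FPKM). Both were lowest in replicate 1 as deposited, but scaling brought mir-6774 to 378, 407 and 418 FPKM, a nearly flat profile, and made replicate 3 the lowest for mir-7976 at 617 scaled FPKM against 665 and 734.

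The hairpin mir-7641-2 had 185, 176 and 158 counts (282 ± 23.9 FPKM) and was among the steadiest members on the deposited scale alone. After scaling it stood at 336, 285 and 223 FPKM. Its mature strand is also made by mir-7641-1, which had 22, 9 and 14 counts, so reads could not be tied to a single copy.

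The next members varied more between cultures. For mir-5001, in an exon of TIGD1 (chr2:232550474-232550573, minus strand), a gene derived from a transposase, counts were 180, 344 and 447 (281 ± 125 FPKM). For mir-7977, outside any annotated host gene at chr3:176515103-176515151 (plus strand), they were 79, 158 and 187 (253 ± 109 FPKM). Both were lowest in replicate 1, also after scaling.

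In mir-7706, in an exon of AKAP13, a kinase anchoring protein gene (chr15:85380596-85380662, plus strand), replicate 1 was again highest, with 263, 154 and 148 counts (239 ± 65.2 FPKM). In mir-6516 it was lowest, with 83, 205 and 219 counts (183 ± 87.5 FPKM). That hairpin, at chr17:77089417-77089497 (plus strand), lies in an intron of SEC14L1 and an exon of SNHG20, and overlaps the small Cajal body RNA SCARNA16, so its reads could not be told from fragments of that RNA. The twelfth hairpin, mir-6798, had 115, 79 and 101 counts (125 ± 14.9 FPKM).

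**Figure D2:**
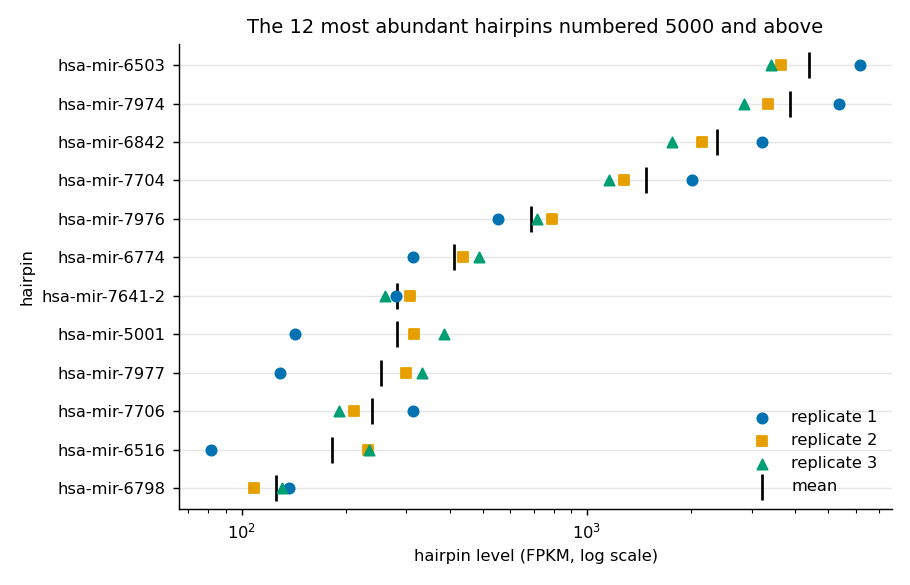
Level of the 12 most abundant member hairpins in each library (FPKM, log scale); symbols mark replicates 1, 2 and 3 and the black tick the mean. The first 4 hairpins are highest in replicate 1, whereas mir-5001, mir-7977 and mir-6516 are lowest there.

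The mature strands followed their hairpins. The highest was miR-6503-3p with 6531, 3171 and 3099 counts (17800 ± 6882 FPKM, SD, n = 3), ahead of miR-7974 at 13120 ± 4552, miR-6842-3p at 7200 ± 2321 and miR-7704 at 4786 ± 1492 FPKM. miR-7976 followed at 2459 ± 417, miR-5001-3p at 1221 ± 576 and miR-6774-3p at 1135 ± 238 FPKM. The remaining 5 of the top 12, miR-6503-5p, miR-7641, miR-7977, miR-7706 and miR-6516-3p, lay between 549 and 873 FPKM. Neighbours in this order from miR-5001-3p on differed by less than the larger of their SDs.

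Most members with a known position ended where an intron ends. RefSeq coordinates were found for 110 of the 125, and were compared with GENCODE release 29 gene models on the same strand. A hairpin was counted as ending at an intron's 3′ end when its last base lay within 10 nt of it. This held for 82 of the 110 members (74.5%), against 103 of the 523 matched hairpins overall (19.7%), 2 of 244 below 1000 (0.820%), 8 of 42 from 1000 to below 3000 (19.0%) and 11 of 126 from 3000 to below 5000 (8.73%). Since the members account for most of the overall count, the lower classes are the better background, and no test was made of these shares.

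The match was exact to the base in 77 of the 82, and in the other 5 the hairpin ran 1 to 9 nt past the intron. In 8 the hairpin spanned the whole intron, with both ends within 10 nt of the splice sites. In the other 74 it began more than 10 nt from the intron's start. These were not all tails of long introns, as 34 of the 74 introns were shorter than 200 nt. The 82 introns had a median length of 186 nt (74 to 9210 nt), and 42 were shorter than 200 nt. In 17 of the 82 another transcript has the same stretch inside an exon.

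Of the 28 matched members elsewhere, 15 overlapped an intron without ending there, 6 lay in exons, 1 was partly exonic and 6 had no host gene. Of the 15, mir-5010 (ATP6V0A1), mir-5006 (VWA8) and mir-5193 (UBA7) ran 19, 20 and 29 nt past an intron's 3′ end, so a wider limit would have moved them. Mature strands of the first 2 are shown for their last bases.
miR-5010-3p: uUUUGUGUcucccauuccccag
miR-5006-3p: uUUCCCUUuccauccuggcag
The annotated hairpins reach into the next exon, but both strands end in ag at the last base of the intron, with 0 nt between.

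Hairpins mir-6726 to mir-6895 and mir-7106 to mir-7114 form a block of 79 members. All 70 of them with coordinates ended at an intron's 3′ end, against 12 of 40 outside the block. The block was picked, from general knowledge, as hairpins proposed as mirtrons. Its position at intron ends was thus largely given by that choice and is no separate result. These 70 also make up most of the 82 members counted at an intron's 3′ end. The median was 18.8 FPKM in the block and 28.7 FPKM in the other 46 members.

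Members at intron ends had lower levels than the others, a description for which no test was made. Members at an intron's 3′ end had a median of 18.9 FPKM and reached 413 FPKM at most, and together they held 12.5% of member counts. The 28 elsewhere had a median of 53.0 FPKM and held 72.7%, the rest lying with the 15 members without coordinates. At least 100 counts over the 3 libraries were found for 7 of the 82 and 17 of the 28. Whole-intron hairpins were lowest, with a median of 10.9 FPKM, against 64.7 FPKM for those overlapping an intron elsewhere and 132 FPKM for those in exons. These are descriptions of 3 libraries of a single line, and host transcript levels were not analysed here.

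**Figure D3:**
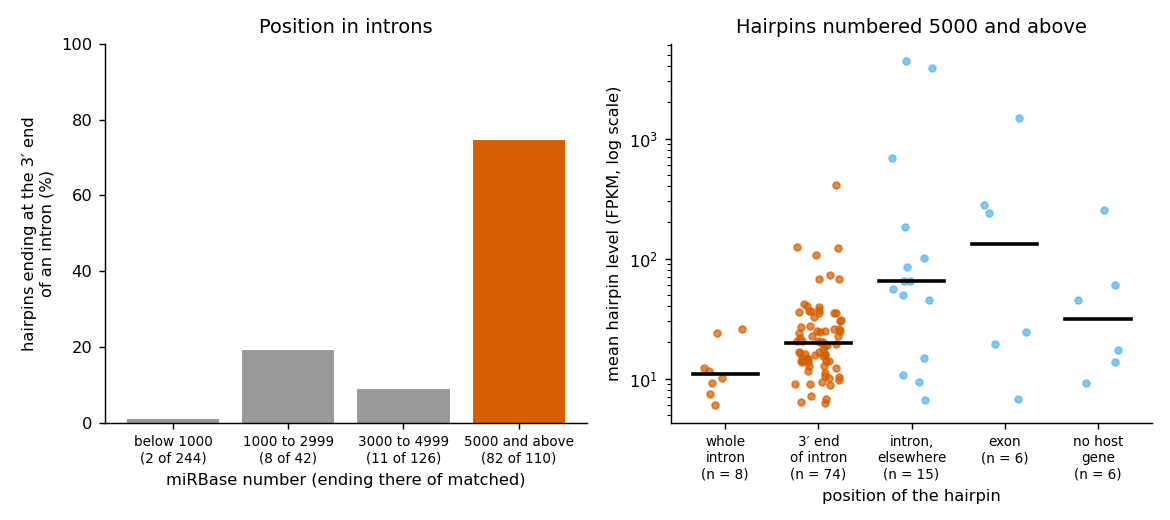
Left, percent of matched hairpins that end within 10 nt of an intron's 3′ end, by miRBase number, with counts under the bars; right, mean level of member hairpins (FPKM, log scale) by position, with the median as a black line and the 1 partly exonic member left out. The share is 74.5% for numbers 5000 and above and 0.820% below 1000, and the members at intron ends all stay at or below 413 FPKM.

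The 8 whole-intron members were all scarce. The highest, mir-6857 in SMC1A, had 42, 23 and 21 counts. Counts of mir-6789 in PLEKHJ1 were 21, 29 and 31, those of mir-6891 in HLA-B, a class I antigen-presenting molecule, 13, 14 and 13, and those of mir-6807 in TRIM28, a transcriptional corepressor, 9, 13 and 15. None of the 8 passed 100 counts over the 3 libraries.

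Some host genes gave several members. PPP6R1, a regulatory subunit of protein phosphatase 6, held 3 members at the ends of separate introns. These were mir-6803 (47, 54 and 63 counts), mir-6802 (18, 21 and 30) and mir-6804 (16, 16 and 22). All 3 had their highest count in replicate 3, which was the highest library in FPKM for 65 of 125 member hairpins and 357 of all 661. TPRA1 held mir-7976 inside an intron and mir-6825 at an intron's end, with 1571 counts in total for the first and 4, 7 and 11 counts for the second. Copies of mir-6511a and mir-6770 lie together in PKD1P1 and AC138932.1 on chromosome 16, where duplicated sequence leaves the copy of origin uncertain.

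The arms listed were mostly 3p. Of the 125 mature members, 75 are named 3p, 34 are named 5p and 16 carry no arm. By hairpin, 62 had only a 3p arm listed, 16 only a 5p arm, 18 both, 17 an unmarked strand and 12 none. In all listed hairpins, members included, 134 had only a 3p arm, 98 only a 5p arm and 213 both. Below 1000, 34 had only 3p and 47 only 5p. From 1000 to below 3000 these were 14 and 10, and from 3000 to below 5000 they were 23 and 25. Among the 82 at an intron's 3′ end, 51 had only 3p, 13 only 5p and 9 both.

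Since nearly all introns end in AG, a 3p arm that reaches the last base of its intron ends in AG by its position. Of the 52 listed 3p strands with a sequence from members at an intron's end, 47 reached the last base and all 47 ended in AG, and the other 5 stopped 1 to 7 nt short and ended otherwise. In members elsewhere 2 of 10 ended in AG, and these were miR-5010-3p and miR-5006-3p, which also end at the last base of an intron. The share was 79.1% over all members with a 3p sequence (53 of 67), 20.9% from 3000 to below 5000, 21.1% from 1000 to below 3000 and 4.97% below 1000. In lower-numbered hairpins at an intron's end it was 71.4% (10 of 14). Pyrimidines made up a median of 71.4% of the bases of member 3p arms, against 71.0% in those 14 arms and 59.1% over all listed 3p arms, and 40.0% of member 5p arms, against 47.6%.

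Seeds were almost all different. The 109 mature members with a sequence had 108 seeds, and the shared seed was that of 2 near-identical members, which had 39, 61 and 73 counts (miR-6511a-3p) and 38, 67 and 65 counts (miR-6511b-3p). Another 7 members shared a seed with a lower-numbered listed miRNA. The pair of most unequal level is printed with the duplicated pair, because a shared seed is the feature by which targets are grouped.
miR-6511a-3p: cCUCACCAucccuucugccugc
miR-6511b-3p: cCUCACCAccccuucugccugca
miR-6874-3p: cAGUUCUGcuguucugacucuag
miR-148b-5p: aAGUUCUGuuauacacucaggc
The AGUUCUG seed was carried at 27.2 ± 10.7 FPKM by miR-6874-3p and at 5086 ± 507 FPKM by miR-148b-5p. The other pairs were miR-6769b-3p with miR-3183, miR-6799-3p with miR-3173-5p, miR-6775-3p with miR-1291, miR-5001-5p with miR-4498, miR-6820-3p with miR-3164 and miR-5006-3p with miR-4755-5p. miR-5001-5p had the higher mean of its pair, 97.0 ± 19.3 against 58.2 ± 27.3 FPKM, and miR-6769b-3p and miR-3183 both stood at 106 FPKM. In the other 4 pairs the member had the lower mean, as in miR-6775-3p at 93.7 ± 23.4 FPKM against miR-1291 at 903 ± 334.

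Which arm dominated was tested in the hairpins with both arms listed, with the quasi-likelihood test of edgeR on the counts of both arms, the library as a block and Benjamini-Hochberg adjustment over all 196 pairs. A pair was called at an adjusted p under 0.05 and a log2 ratio of at least 1 in size. In the background 82.1% of pairs were called, 41.3% toward 3p and 40.8% toward 5p. Of the 18 member pairs 8 were called (6503, 6842, 5001, 6783, 6774, 6818, 6516 and 6777), all toward 3p. At an unadjusted p under 0.05 there were 9, the ninth being miR-6514 toward 5p. Member pairs were thinly covered, with a median of 93.5 counts over both arms and all libraries against 4527.5 over all pairs. The test also took in only hairpins of which both arms reached 10 counts in some library. Left out were 62 member hairpins with only 3p listed and 16 with only 5p, against 134 and 98 of all listed hairpins. Scarce members with reads on 1 arm thus could not be called. The part of depth and of this limit in the lower share of calls was not tested. limma on log2 FPKM ratios called 8 as well, the same 8.

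The widest ratio was that of miR-6842, whose 3p arm had 2609, 1506 and 1299 counts and whose 5p arm had 9, 17 and 24. The log2 ratio of 5p over 3p was -6.71 (adjusted p = 0.000153, edgeR), with a limma SE of 0.521. For miR-6503 the ratio was -4.20 (adjusted p = 0.000599, edgeR), from 146, 235 and 289 counts of 5p. Its arms went opposite ways between cultures: 3p was highest and 5p lowest in replicate 1, so the FPKM ratio was -5.62 there and -3.89 and -3.56 in replicates 2 and 3. The difference between cultures left 3p ahead in all 3. Without replicate 1 the fitted ratios were -6.08 for miR-6842 and -3.59 for miR-6503, both still called.

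The ratio of miR-5001 was -3.40 (adjusted p = 0.000547, edgeR), with 154, 323 and 414 counts of 3p against 26, 21 and 32. Here the 3p arm alone was low in replicate 1, while the 5p arm had its lowest count in replicate 2. In the IRF8 intron, miR-6774 had 219, 272 and 305 counts of 3p and 57, 60 and 88 of 5p, a ratio of -1.97 (adjusted p = 0.00125, edgeR). It was the steadiest of the called pairs, with FPKM ratios of -2.20, -2.44 and -2.05.

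The other 4 calls rested on fewer reads and each was lost without 1 library. miR-6516, with 54, 164 and 180 counts of 3p and 28, 41 and 39 of 5p, had a ratio of -1.74 (adjusted p = 0.00658, edgeR), and of -1.59 without replicate 2 (adjusted p = 0.0752). miR-6783, with 31, 26 and 23 against 1, 6 and 12, had -2.16 (adjusted p = 0.0279, edgeR), and -2.28 without replicate 2 (adjusted p = 0.0968). miR-6818 in MTMR3, with 26, 19 and 19 against 1, 6 and 11, had -1.89 (adjusted p = 0.0412, edgeR), and -2.11 without replicate 2 (adjusted p = 0.111). The size of these ratios was thus kept where the call was lost. In both of the last pairs replicate 1 held a single 5p read and lay farthest toward 3p. Their ratios were -1.44 and -1.15 without replicate 1 and -3.05 and -2.69 without replicate 3, called in each case.

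miR-6777, in an intron of SREBF1, a regulator of lipid synthesis, had 24, 19 and 14 counts of 3p and 5, 13 and 5 of 5p, a ratio of -1.34 (adjusted p = 0.0379, edgeR). Without replicate 1 the ratio was -0.88 (adjusted p = 0.139) and without replicate 3 it was -1.30 (adjusted p = 0.0752, edgeR).

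The other 10 pairs were not called. In miR-6514, from an NXF1 intron, the 5p arm had 25, 21 and 22 counts and the 3p arm 5, 10 and 16, with a ratio of 1.19 (adjusted p = 0.0550, edgeR). Without replicate 3 it was 1.63 (adjusted p = 0.0274), so this pair would then have been the sole member called toward 5p. In miR-6741 the ratio was -1.28 (adjusted p = 0.0833, edgeR), and -2.07 without replicate 2 (adjusted p = 0.0358), where its arms had 11 counts each. miR-6515 in CALR, the gene of an endoplasmic reticulum chaperone, had 53, 48 and 37 counts of 5p and 26, 33 and 24 of 3p, a ratio of 0.73 (adjusted p = 0.0688, edgeR). The ratios of miR-5587, miR-6733, miR-6793, miR-6813, miR-6847, miR-6855 and miR-7114 lay between -0.65 and 0.71, with adjusted p between 0.146 and 0.625 (edgeR).

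**Figure D4:**
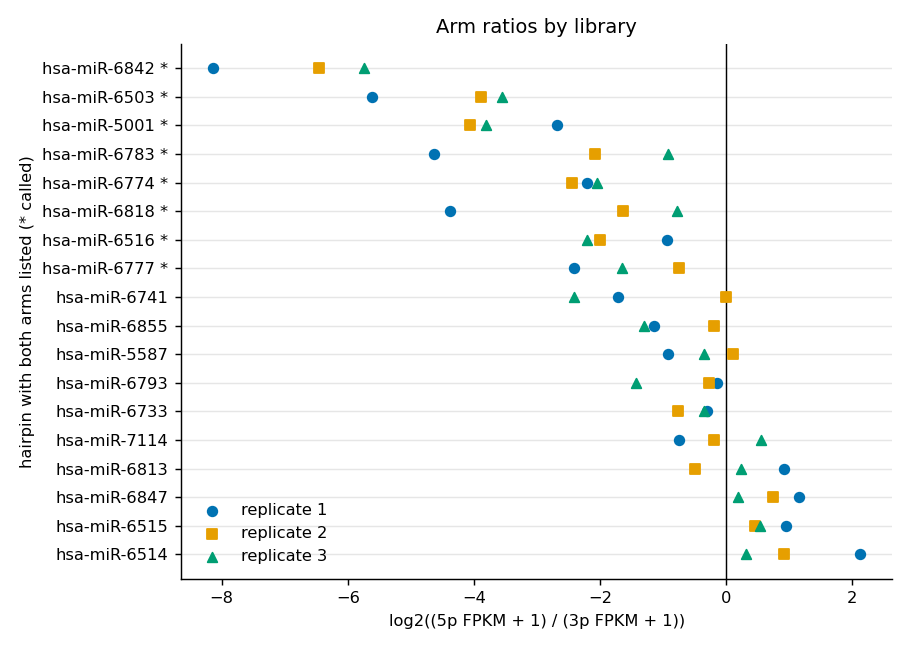
log2 ratio of 5p over 3p FPKM, with a pseudocount of 1, in each library for the 18 member hairpins with both arms listed; an asterisk marks the 8 called pairs and the vertical line equal arms. All called pairs lie left of the line in all 3 libraries, with miR-6842 farthest at -8.14 to -5.74.

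Reads of member hairpins fell largely on the listed arms. Shares were first averaged over the libraries for each hairpin name, with copies summed. The arm counts then made up a median of 96.3% of the hairpin counts over the 107 member names with a listed arm, against 99.3% over all 566. Within single libraries the medians lay closer. They were 99.8%, 99.9% and 99.0% for the members and 99.9%, 99.8% and 99.8% for all in replicates 1, 2 and 3. With counts pooled over the 3 libraries, the share was exactly 100% in 33 of the 107 and under 70% in 8, against 132 and 34 of all 566. It was under 50% in 9 of all 566 names, and in 3, 1, 2 and 1 of the number classes from lowest to highest. The 566 include mir-6087 and mir-7854, which the member rule left out, and the classes do not. As means over libraries mir-6770 had 45.9% and mir-6886 had 48.5%, against 47.2% and 51.2% pooled. That of mir-6770, the lowest of the members, is no measure of reads off the arm. Its 2 hairpin copies are listed separately, with 7, 13 and 6 counts (mir-6770-1) and 11, 3 and 13 (mir-6770-2), while a single row of miR-6770-3p is listed, with 11, 3 and 11, close to the second copy alone. In mir-6515 the arms summed to 105% of the hairpin in each library (79 against 75, 81 against 77 and 61 against 58 counts). How reads were shared between the rows was not tested.

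No mature strand was listed for 12 member hairpins (9.60%), against 7.83% of those from 3000 to below 5000, 8.06% of those from 1000 to below 3000, 1.63% of those below 1000 and 5.30% of all. The hairpin mir-5088, in PRMT1, an arginine methyltransferase gene, had 11, 11 and 16 counts, mir-6723 had 12, 15 and 6, and mir-7845 had 9, 11 and 12. The whole-intron hairpins mir-6892 in ZYX, a focal adhesion gene, and mir-7108 in LMNB2, a nuclear lamin gene, had 9, 9 and 12 and 8, 9 and 11. Counts of mir-6800 were 7, 13 and 10, those of mir-6728 in ENO1, a glycolytic enzyme gene, 6, 9 and 13, and those of mir-6825 in TPRA1 4, 7 and 11. The remaining 4 were mir-6854, mir-8072, mir-6766 and mir-6821, with mir-6821 in PIM3 having 11, 4 and 1. None of the 12 passed 16 counts in any library. By position, no arm was listed for 8 of the 82 members at an intron's 3′ end (9.76%) and 2 of the 28 elsewhere (7.14%).

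Replicate spread in the members was above that of counting alone. Every row listed reached 10 counts in at least 1 library, so a scarce row could enter through 1 high library. Such was mir-6821, with 11, 4 and 1 counts. The part of this in the spread was not tested. The coefficient of variation (CV, the SD over the mean of FPKM) had a median of 32.1% in member hairpins, where counting alone would give 24.5%, and of 28.8% in all hairpins, where counting would give 12.4%. In the 27 members with at least 100 counts over the 3 libraries, counting alone would give 10.7%, against 4.39% for all such hairpins. The median CVs were 21.9% and 24.4% in turn. Scaling turned that order, to 27.4% against 21.6%. Mature members had a median of 33.7%, against 32.5%, and those with at least 100 counts had 25.6% against 29.1% as deposited and 27.8% against 24.3% after scaling.

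Among those 27, the smallest CVs were those of mir-5010 at 4.13% (132, 116 and 114 counts), mir-7641-2 at 8.49%, mir-6501 at 9.39% (93, 73 and 71), mir-5581 at 11.1% (33, 33 and 38) and mir-6798 at 11.9%. The values for mir-5010, mir-6501 and mir-5581 were below the counting error of 9.10%, 11.3% and 17.0%. This order held for the deposited scale alone. After scaling the smallest were those of mir-6803 at 2.06%, mir-6774 at 5.19%, mir-6787 at 5.77%, mir-5581 at 6.60% and mir-5582 at 8.17%, and mir-5010 had 20.4%.

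The largest CVs were those of mir-7705 at 48.1% (119, 46 and 53 counts), mir-6516 at 47.9%, mir-6866 at 47.4% (90, 41 and 35), mir-5001 at 44.4% and mir-7977 at 42.9%. Counting error was 5.56% to 13.4% in these 5. After scaling mir-7705 and mir-6866 led with 67.0% and 66.1%, followed by mir-5690 (60.4%), mir-6503 (54.1%) and mir-7974 (53.7%), while mir-6516, mir-5001 and mir-7977 came to 37.4%, 31.4% and 30.5%. Replicate 1 was the odd library in each of the 5 largest as deposited, being high for mir-7705 and mir-6866 and low for the others. The mature strands gave a like list, with miR-6516-3p at 54.7%, miR-5690 at 47.5%, miR-6866-5p at 47.4%, miR-5001-3p at 47.1% and miR-7705 at 43.7%, and at the low end miR-5010-3p at 4.60%, miR-7641 at 7.68%, miR-6501-5p at 10.3%, miR-5581-3p at 11.2% and miR-6798-3p at 12.5%.

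Replicate 1 was the highest library for 23 of the 125 member hairpins (18.4%), against 20.6% of all hairpins. After scaling it was highest for 36.8% of the members and 41.1% of all hairpins. By position, as deposited, it was highest for 10 of the 82 at an intron's 3′ end and for 10 of the 28 elsewhere. Of the 27 members with at least 100 counts, 11 were highest in replicate 1 as deposited and 18 after scaling. The share over all hairpins with as many counts was not computed, so these counts have no background and are not read as a trait of the members.

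**Figure D5:**
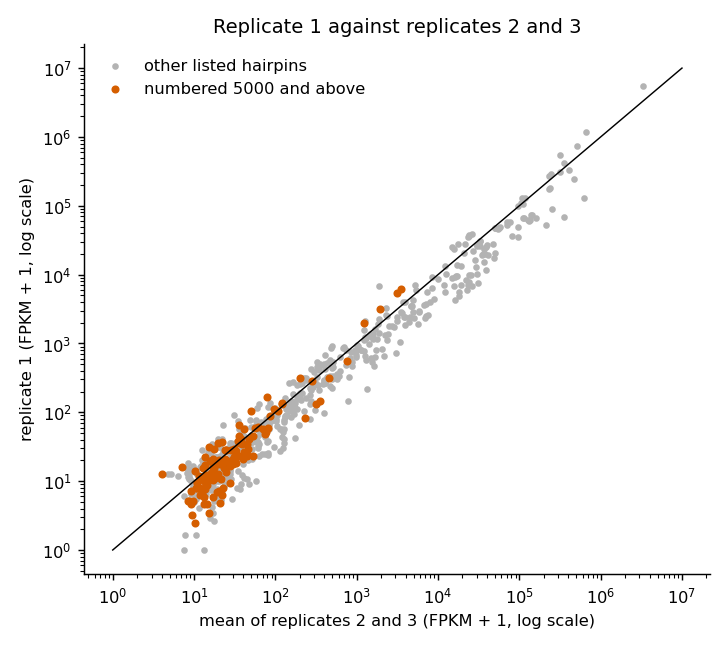
Hairpin level in replicate 1 against the mean of replicates 2 and 3 (FPKM + 1, both axes log scale), with members in orange, other listed hairpins in gray and the line of equality. Members crowd the low end, and the 4 most abundant lie above the line.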

How the data were processed

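Small RNA libraries were prepared from total RNA of 3 MV4-11 cultures with an NEB kit and sequenced on a HiSeq instrument. Reads were aligned by the authors and assigned to mature strands and primary transcripts (hairpins) of miRBase 21. The submitters' processing notes name Novoalign 2.08.03 and the builds hg19 and mm10 without their roles. Both deposited tables held whole read counts, not normalized, and FPKM, which the authors computed from length and total reads. Members and lists were chosen with earlier results of these data known.

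Rows of a mature name were summed (3 member names, 8 rows). Levels are deposited FPKM as mean ± SD over the 3 cultures. Arm ratios were tested with edgeR 4.0.16 (R 4.3.3) on counts, with TMM factors and the library as a block. limma 3.58.1 on log2(FPKM + 1), DESeq2 1.42.0, other filters and omission of each replicate were alternatives. The library block takes out differences in level between the cultures. p-values of the arm test thus set an arm ratio against the variation of arm ratios between these cultures, and do not measure the spread of levels. The arm test was checked on simulated data. Mature depth was 12694823, 10991953 and 11682129 counts. Reads had no molecular identifiers, so intervals cover counting error only. Positions are RefSeq GRCh38.p14 against GENCODE 29. Named were the 12 most abundant hairpins and strands, all pairs with both arms and the 8 fullest hairpins with no arm. Also named were the 5 largest and smallest CVs (those after scaling were added later). Hairpins with under 50% or over 100% of pooled reads on arms were named as well, and mir-6886 was added later. Whole-intron members, members past an intron's end, shared hosts and shared seeds were named after their values were seen. Python 3.11.15, pandas 2.3.3 and matplotlib 3.10.9 were used.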

Additional observations from a re-analysis of the deposited data

How the results depend on the processing

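A value was taken as kept when it moved by less than 1 SD between replicates, a count when it stayed within 1.5 times, and an arm ratio when it kept its direction and its call. By this 40 of 65 recomputed summaries and 267 of 282 single values were kept, with any change of a median CV taken as a move. Requiring at least 10 counts in every library left 75 hairpins and 65 mature strands of the members, and requiring a mean of at least 100 FPKM left 16 and 41. The median rank of member hairpins was 504 on counts without division by length, in place of 482, and 474 to 483 without 1 replicate. The median of member hairpins over that of all hairpins was 0.303, and became 0.193 among features with at least 10 counts in every library, 0.256 without division by length and 0.293 to 0.327 without 1 replicate. For mature strands it was 0.228, and became 0.160, 0.211 and 0.208 to 0.232. The median CV of member hairpins was 29.2% after median-of-ratios scaling, 21.9% with at least 100 counts and 21.5% to 33.8% without 1 replicate. For mature strands these were 31.4%, 25.6% and 21.5% to 35.6%, and in both tables the lowest value came without replicate 1. The median share of reads on listed arms was 98.8% among hairpins with at least 10 counts in every library. Cause was not tested for any of these, beyond the fewer features that a filter leaves.

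Member pairs called numbered 8 with limma at either pseudocount, DESeq2, other size factors and the filter on counts, 9 with no library block, and 7, 6 and 8 without replicates 1, 2 and 3, of which 7, 5 and 7 were among the reported 8. All pairs called numbered 140 to 169 without 1 replicate. The ratio of miR-7114, which was not called, turned from -0.24 to 0.12 without replicate 1 (adjusted p = 0.882, edgeR) and was -0.51 without replicate 3. No paired analysis was possible because the series holds 1 group, so no samples could be paired across groups; the arm test itself compared both arms within each library, and the 9 calls above are those without that block. Depth limits most of the list: 98 of 125 member hairpins had fewer than 100 counts in all.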
